A study of Caenorhabditis elegans with 2 samples.

Results

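Binding of eGFP-NHR-28 was examined at the 9 genes of propionate breakdown in Caenorhabditis elegans, among 19973 protein-coding genes in all. The 5 genes of the propionate shunt were acdh-1, ech-6, hach-1, hphd-1 and alh-8, and the 4 genes of the canonical pathway were pcca-1, pccb-1, mce-1 and mmcm-1. They were chosen by name as a pathway, and every region whose summit lay between 3 kb upstream of the gene start and the gene end was taken. The study profiled a nuclear hormone receptor, NHR-28, by chromatin immunoprecipitation followed by sequencing (ChIP-seq) in whole L4 larvae. There was a single group with 2 biological replicates, both of strain OP317, which carries unc-119(ed3) III and the transgene wgIs317 for the eGFP-tagged receptor. Males and females were pooled, and the labels give the nhr-28 product as the precipitated target. No control sample was analysed here. Whole animals were used, so strong binding in a few cells and weaker binding in many cannot be told apart. Library depth is unknown. Coordinates are those of the ce11 build.

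Propionate arises from the breakdown of branched-chain amino acids, methionine and odd-chain fatty acids. In the canonical pathway it is carboxylated, epimerised and rearranged to succinyl-CoA, the last step by a mutase that needs cobalamin as cofactor. When cobalamin is scarce, C. elegans uses a cobalamin-independent shunt that resembles beta-oxidation and passes through 3-hydroxypropionate. The shunt is known to be induced through the nuclear hormone receptors NHR-10 and NHR-68, and acdh-1 is widely used as a reporter of low cobalamin. NHR-28 belongs to the same receptor family.

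Regions of the authors' optimal set, which they derived from both replicate lists and a list from the pooled alignments, lay at 8 of the 9 genes. These were all 4 canonical genes and 4 of the 5 shunt genes, and the gene with none was acdh-1. Of all protein-coding genes, 38.1% had an optimal summit in the same window. Among genes whose window was as long as those of the 9 genes (4228 to 7503 bp), 37.6% had a summit. The 8 genes held 11 optimal regions, 6 at shunt and 5 at canonical genes. The signal value of these regions, which is the authors' own and has an unstated scale, ran from 41.8 at ech-6 to 317 at mmcm-1, with a median of 130. The median of the other optimal regions was 72.7. At 6 of the 8 genes the highest region exceeded a signal of 100, against 39.5% of all protein-coding genes with an optimal region.

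**Figure D1:**
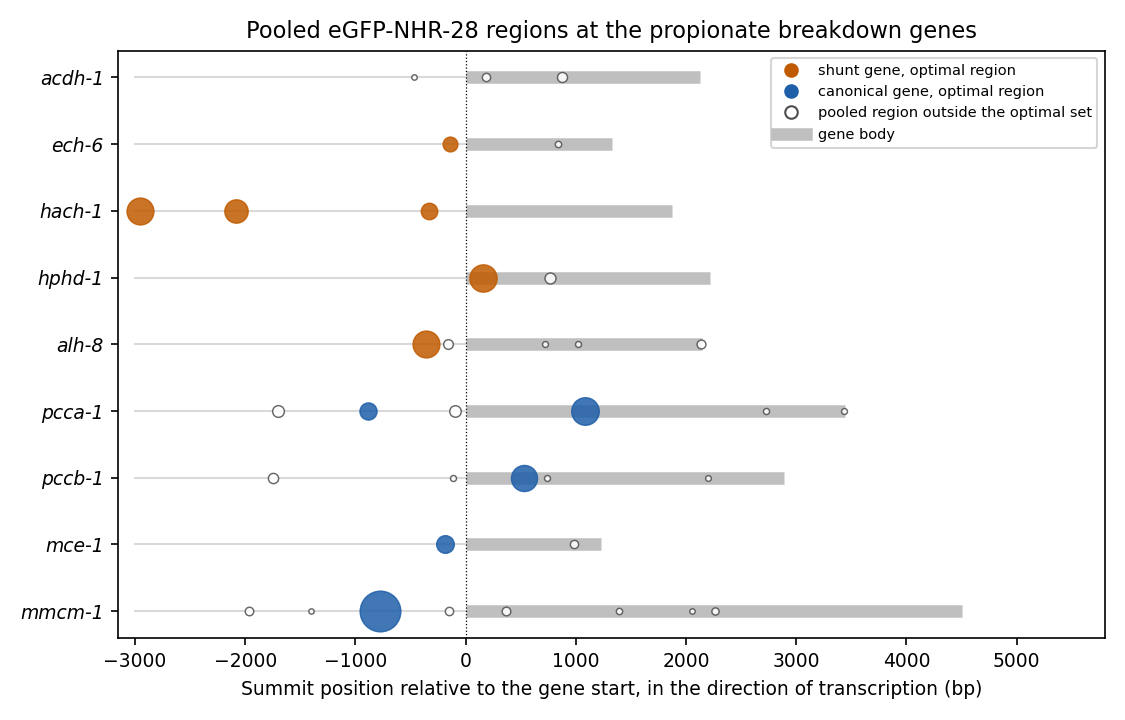
Summits of the pooled list along the 9 genes. Each row is a gene, the x axis is the distance from the gene start in bp in the direction of transcription, the grey bar is the gene body, and the area of a circle is proportional to the pooled signal value. Filled circles are optimal regions (orange, shunt; blue, canonical) and open circles are weaker pooled regions. The largest circle is that of mmcm-1 (317), and acdh-1 has open circles alone.

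Among the canonical genes, the strongest region lay upstream of mmcm-1, which encodes the cobalamin-dependent methylmalonyl-CoA mutase (chrIII:3903185-3907687, minus strand). It spanned chrIII:3908296-3908604, its summit was 774 bp upstream of the gene start in intergenic sequence, and no other protein-coding gene had it in its window. Its signal was 317 in the pooled list, 201 in the replicate 1 list and 113.6 in the replicate 2 list, where it ranked 180, 151 and 258. The pooled summit closest to the mmcm-1 start on its upstream side, at 147 bp, had a pooled signal of 13.3. In pooled signal its direct neighbours in the optimal set were regions nearest to chd-7 and T19C3.4 (both 317) above it and to idh-1 (315) and daf-5 (315) below it. That order rests on 1 pooled value per region.

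The 2 subunits of propionyl-CoA carboxylase, the enzyme of the first canonical step, both carried their strongest region inside the gene. For pcca-1, the alpha subunit gene (chrX:7657542-7660986, minus strand), this region lay in an intron at chrX:7659723-7660072, with the summit 1088 bp inside the gene. Its signal was 145 in the pooled list, 81.9 in replicate 1 and 66.4 in replicate 2. A weaker optimal region of pcca-1 spanned chrX:7661698-7662047, with the summit 887 bp upstream. It had 56.2 in the pooled list, 28.1 in replicate 1 and 31.7 in replicate 2. This weaker region reached into dhs-29, the next gene upstream, at a gap of 904 bp from pcca-1. For pccb-1, the beta subunit gene (chrX:3089549-3092437, plus strand), the region spanned chrX:3089970-3090111. The summit lay in an intron 532 bp inside the gene, and 346 bp upstream of the nearest annotated start site of a pccb-1 transcript. The signal of this region was 130 in the pooled list, 81.6 in replicate 1 and 54.6 in replicate 2. The window of F52E4.5 also held this summit, and that of F27D9.12 the strongest summit of pcca-1. The 2 subunit genes thus had intronic summits of similar pooled level, a level also seen at hphd-1 (143), alh-8 (138) and hach-1 (138). The positions differed, since the pccb-1 summit lay upstream of its nearest start site and the pcca-1 summit 1088 bp downstream of its own. Neither subunit gene had a strong region directly at the gene start. In the pooled list the closest upstream summit of pcca-1, at 99 bp, had a signal of 25.55, and that of pccb-1 had 6.88. The replicates differed at the pcca-1 start, where replicate 1 had a region of signal 27.7 (rank 7452) with its summit 72 bp upstream, whereas the closest upstream summit of replicate 2 lay 359 bp away with a signal of 11.0 (rank 10805).

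Sequence around the strongest summit of these 3 genes is printed below, read from the RefSeq WBcel235 assembly (ce11) as 50 bp to each side of the summit, on the strand of the gene and 5′ to 3′. These windows are shown because they hold the highest canonical signals. Capitals mark matches to the searched motifs described further on.
mmcm-1 (chrIII:3908411-3908511, minus strand): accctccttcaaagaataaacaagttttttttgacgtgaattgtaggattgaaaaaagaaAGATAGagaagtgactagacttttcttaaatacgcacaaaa
pcca-1 (chrX:7659848-7659948, minus strand): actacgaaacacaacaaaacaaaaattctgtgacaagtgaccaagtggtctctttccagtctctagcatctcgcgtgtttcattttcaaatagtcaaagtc
pccb-1 (chrX:3090031-3090131, plus strand): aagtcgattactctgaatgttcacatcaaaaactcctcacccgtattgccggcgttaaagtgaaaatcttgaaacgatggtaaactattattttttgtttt
Of these 3 windows, the one at mmcm-1 held a match, the GATA word AGATAG, starting 10 bp downstream of the summit.

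The gene of the intermediate canonical step, mce-1, encodes methylmalonyl-CoA epimerase (chromosome I, 7582106 to 7583333, plus strand). Of the 4 canonical genes it had the lowest highest signal, although the weaker optimal region of pcca-1 was lower still (56.2). The mce-1 region spanned 7581748 to 7582097, with the summit 183 bp upstream of the gene start. Its signal was 59.6 in the pooled list, 37.9 in replicate 1 and 20.4 in replicate 2. The summit lay in the windows of 4 protein-coding genes, mce-1, ndub-7, D2030.3 and D2030.12, and the start site of mce-1 was the nearest. The gap to ndub-7, which is transcribed the other way, is 477 bp.

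Within the shunt, the windows of the last 3 enzymes held strong regions of nearly equal pooled signal, that of hach-1 lying beyond its next gene upstream. The highest was at hphd-1, which encodes 3-hydroxypropionate dehydrogenase (chrII:12994354-12996571, minus strand). Its region spanned chrII:12996324-12996480 and had a signal of 143 in the pooled list, 87.8 in replicate 1 and 54.5 in replicate 2. The summit lay 160 bp inside the gene as annotated, but 28 bp from the start site of another hphd-1 transcript, and no other gene had it in its window. The gene of the final shunt step, alh-8, encodes the aldehyde dehydrogenase that converts malonic semialdehyde to acetyl-CoA (chrII:11729055-11731198, plus strand). Its region at chrII:11728564-11728763, with the summit 361 bp upstream, had a signal of 138 in the pooled list, 102 in replicate 1 and 41.5 in replicate 2. It ranked 1051 in the replicate 1 list and 2578 in the replicate 2 list. The ratio of its replicate signals, 2.46, was above that of 83.0% of the 8557 optimal regions matched in both replicates. Their median ratio was 1.61.

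The hydrolase gene of the shunt, hach-1, had the most optimal regions of the 9 genes (chrIII:5555450-5557318, plus strand). Its 3 summits lay 2959, 2083 and 334 bp upstream. The farthest, at chrIII:5552394-5552574, had a signal of 138 in the pooled list, 89.5 in replicate 1 and 50.3 in replicate 2. The next, at chrIII:5553288-5553404, had 104 in the pooled list, 62.6 in replicate 1 and 41.5 in replicate 2. The closest, at chrIII:5554941-5555290, had 51.9 in the pooled list, 31.3 in replicate 1 and 21.2 in replicate 2. All 3 were nearer to the start site of another gene than to that of hach-1. The farther pair were nearest to F09F7.6, at 356 and 1232 bp, and the closest to nmad-1, at 182 bp, which is divergent from hach-1 with a gap of 515 bp. The farther pair lay beyond nmad-1, so the region of 51.9 alone lay between nmad-1 and hach-1. With windows stopped at the next protein-coding gene, 9 of the 11 optimal summits of the members were left. Of all the optimal summits of the 9 genes, the farthest one at hach-1 was the closest to the upstream limit of 3 kb.

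The enoyl-CoA hydratase gene ech-6, the second step of the shunt, had the weakest optimal region of the 9 genes (chrIII:9751552-9752883, minus strand). The region spanned chrIII:9752846-9753195, with the summit 138 bp upstream of the gene. Its signal was 41.8 in the pooled list, 20.0 in replicate 1 and 24.0 in replicate 2, where it ranked 7776, 9775 and 5386. Its ratio of replicate 1 to replicate 2 signal, 0.834, and that of the upstream region of pcca-1, 0.885, were below 1. Lower ratios than these were seen at 5.94% and 7.75% of the optimal regions matched in both replicates. A further optimal region lay 171 bp beyond the end of ech-6, outside the window, with a signal of 51.5 and T05G5.5 as its nearest gene.

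The shunt windows below are printed in the same way, for the strongest region of each shunt gene with an optimal region and for the hach-1 region next in signal. At hphd-1 the window reaches into an annotated UTR, so 30 bases around its CACGTG are shown in its place. The start site of another hphd-1 transcript lies within that CACGTG, so these bases also run into transcribed sequence. The closest hach-1 region is not printed.
alh-8 (chrII:11728644-11728744, plus strand): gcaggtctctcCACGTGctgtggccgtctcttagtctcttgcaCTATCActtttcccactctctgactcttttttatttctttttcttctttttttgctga
hphd-1 (chrII:12996367-12996396, minus strand): tctctatttctcCACGTGtttgtacataaa
hach-1 (chrIII:5552441-5552541, plus strand): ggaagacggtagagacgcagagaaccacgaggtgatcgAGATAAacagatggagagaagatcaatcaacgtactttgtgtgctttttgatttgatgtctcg
hach-1 (chrIII:5553317-5553417, plus strand): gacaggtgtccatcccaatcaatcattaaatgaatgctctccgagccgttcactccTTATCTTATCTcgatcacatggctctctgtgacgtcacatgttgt
ech-6 (chrIII:9752971-9753071, minus strand): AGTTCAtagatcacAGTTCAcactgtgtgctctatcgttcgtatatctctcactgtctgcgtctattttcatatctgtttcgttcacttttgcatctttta
Capitals mark CACGTG at alh-8 and hphd-1, the GATA words TGATAG at alh-8 (reverse strand) and AGATAA at both hach-1 windows, and AGTTCA in 2 copies at ech-6. In the second hach-1 window 2 copies of AGATAA on the reverse strand share a base.

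The shunt's first gene, acdh-1, which encodes the acyl-CoA dehydrogenase that oxidises propionyl-CoA, had no optimal region (chromosome I, 6497436 to 6499560, plus strand). The pooled list held 3 weak regions in its window, with signals of 5.62, 13.2 and 19.3. The lowest optimal signal was 36.2. The first of them had its summit 471 bp upstream, and the others lay 188 and 872 bp inside the gene in coding sequence. The summit at 872 bp was 223 bp from another annotated acdh-1 start site. A replicate 1 region of signal 7.43 had its summit 9 bp from that site. The highest of the 3 pooled regions had a −log10 q of 2.49 against the ceiling of 4.32 that all optimal regions shared. Replicate 1 held 4 regions with signals of 4.76, 10.6, 7.43 and 11.05, and replicate 2 held 1 with a signal of 6.12. The weak region 872 bp inside the gene was thus in the pooled list and both replicate lists, whereas replicate 2 had no region over the start or upstream of acdh-1. Ranked by its highest pooled signal, acdh-1 was at 77.1% of the 12351 protein-coding genes with any pooled region in the window, where 0% is the strongest. The nearest optimal region upstream, 3495 bp from the gene start and outside the window, had a signal of 83.2 and lay in the 5′ UTR of mdt-18.

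By highest pooled signal the genes ordered as mmcm-1 (317), pcca-1 (145), hphd-1 (143), alh-8 (138), hach-1 (138), pccb-1 (130), mce-1 (59.6), ech-6 (41.8) and acdh-1 (19.3). The 5 genes from pcca-1 to pccb-1 spanned 130 to 145, and their order changed between the replicates. Replicate 1 ordered them as alh-8 (102), hach-1 (89.5), hphd-1 (87.8), pcca-1 (81.9) and pccb-1 (81.6). Replicate 2 ordered them as pcca-1 (66.4), pccb-1 (54.6), hphd-1 (54.5), hach-1 (50.3) and alh-8 (41.5). With 2 replicates and lists scaled apart, no test was made and these 5 could not be ordered. The positions of mmcm-1 at the top and acdh-1 at the bottom were the same in all 3 lists, while mce-1 and ech-6 exchanged places in replicate 2 (20.4 and 24.0). Among genes with any pooled region, the median highest signal was 51.2, and mmcm-1 stood at 1.87%, pcca-1 at 12.9%, mce-1 at 44.0% and ech-6 at 56.8% of the order.

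**Figure D2:**
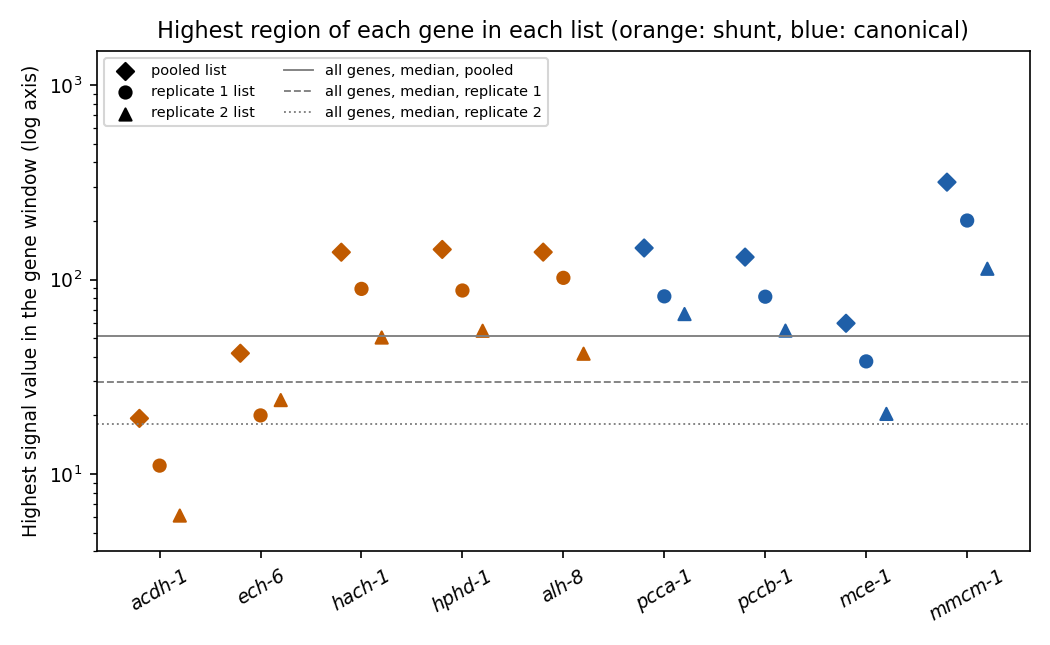
Highest signal value in the window of each gene (y axis, log scale) in the pooled list (diamonds), the replicate 1 list (circles) and the replicate 2 list (triangles), for shunt (orange) and canonical (blue) genes. Lines give the median over all protein-coding genes with a region in that list. In all lists mmcm-1 is highest and acdh-1 lowest.

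Each of the 11 optimal regions had a region over its summit in both replicate lists, as did 97.9% of all optimal regions. The optimal set was derived from the same lists, so this is a description. The median ratio of replicate 1 to replicate 2 signal was 1.51 at the 11 regions and 1.61 over all optimal regions matched in both replicates. Summits of the replicates lay a median of 23 bp apart at the 11 regions and 26 bp apart over the same matched regions of the whole set. The widest gaps were 100 bp at pccb-1, 80 bp at the upstream region of pcca-1 and 76 bp at alh-8. In replicate 2 these regions were 340 bp wide with the summit at the centre, which limits the precision of the gaps. At pccb-1 replicate 1 held a region of signal 81.6 and a second one of 41.2 beside it, both within the gene, where replicate 2 held a single region.

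**Figure D3:**
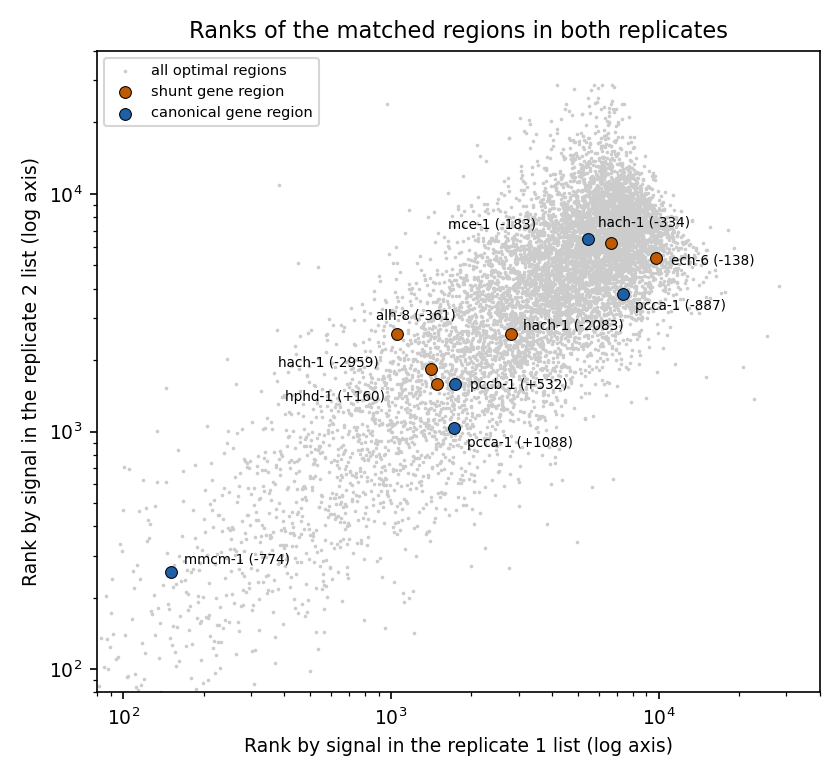
Rank by signal in the replicate 1 list (x axis) and the replicate 2 list (y axis), both on log axes, of the regions matched to optimal regions. Grey points are all optimal regions within the axis limits and coloured points are the 11 regions of the propionate genes, labelled with the distance of the summit from the gene start in bp. The mmcm-1 region ranks 151 and 258, and the ech-6 region 9775 and 5386.

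In position, 8 of the 11 summits were intergenic and 3 were in introns of the gene itself, and none was in a coding exon. Of the intronic ones, those of hphd-1 and pccb-1 lay 28 and 346 bp upstream of another annotated start site of the same gene. Within 1 kb upstream of the gene start lay 6 of the 11 summits. These counts stand without the shares over all optimal regions and describe placement alone. The gene's own start site was the nearest for 8 summits. They lay at 7 of the 9 genes, and 28.6% of all protein-coding genes had a summit nearest to their own start site. The exception among the 8 genes was hach-1. The windows of 2 or more protein-coding genes held 7 of the 11 summits. Over the 7685 optimal regions in any gene window, each counted once, this share was 38.5%. The 11 summits were instead taken by gene, and a summit in several windows can be reached through each of those genes. Counted by gene, the same regions entered windows 11559 times. The 2 shares are therefore unlike and no difference is read from them. A set of 11 sequence words was looked for in the 50 bp to either side of every summit, in forward and reverse orientation. A match describes letters and is not a binding site. The word TGATAA of the GATA factors was found at 1 of the 11 summits, the weaker one of pcca-1, against 33.3% of all optimal summits and 12.6% of windows of equal length directly upstream of protein-coding genes. When AGATAA as well as TGATAG and the word AGATAG were also allowed, a choice made after the sequences were seen, 5 of 11 windows matched (2 at hach-1, and 1 each at alh-8, mmcm-1 and pcca-1), against 48.1% of all optimal summits and 25.6% of upstream windows. CACGTG was at 2 of 11, against 4.60% of all summits and 2.47% of upstream windows. AGTTCA was at 1 of 11 (5.98% of all summits, 7.28% of upstream windows), and TTTCAG and TATAAA were at 1 each, both in the closest hach-1 window (7.15% and 7.49% of all summits, 25.7% and 19.4% of upstream windows). The other 6 words were at none of the 11 windows. GAGAGAGA was at 5.61% of all summits and 1.38% of upstream windows. CCGCCC was at 4.197% of all summits and 3.50% of upstream windows. The forkhead word GTAAACA was at 2.61% of all summits and 1.60% of upstream windows. AGGTCA, a nuclear receptor half-site, was at 4.38% of all summits and 3.12% of upstream windows. The longer AAGTCCA was at 0.503% of all summits and 0.521% of upstream windows. CAAAGTCCA, which contains it, was at 0.126% of all summits and 0.045% of upstream windows. The GC content of the 11 windows ran from 30.7% at mmcm-1 to 45.5%, with a median of 38.6% against 40.6% over all optimal summits. Where a region had the standard width of 350 bp, as 5 of the 11 did, its summit was set at the centre, which limits the precision of these windows.

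Other genes around propionate metabolism were read from a list chosen by name. Of these 32 genes, 25 had an optimal region in the same window, with 46 regions in all, against 38.1% of all protein-coding genes. A region nearest to their own start site was found at 18 of the 32, against 28.6% of all protein-coding genes. A signal above 100 was reached by 12 of the 25, against 39.5% of all protein-coding genes with an optimal region. Some of these windows were long, with 17200 bp at sbp-1 and 10816 bp at mrp-5, against a median of 5027 bp over all protein-coding genes, and the part of window length in these counts was not tested. All 7 genes of cobalamin handling had a region, and at 5 of them one was nearest to their own start site. The strongest was at mtrr-1, methionine synthase reductase, with regions of 511, 223 and 97.6 lying 2979, 1761 and 1189 bp upstream, the first of them slightly nearer to gldi-3. Methionine synthase, metr-1, the other cobalamin-dependent enzyme, had 276 and 56.3, the stronger nearer to Y19D2B.2. The transporter genes pmp-5 and mrp-5 reached 156 and 124, and cblc-1, mmaa-1 and mmab-1 81.8, 50.9 and 38.1, where the regions of cblc-1 and mmaa-1 were nearest to other genes.

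All 5 regulators had regions, against 38.1% of all protein-coding genes. At 4 of them a region was nearest to their own start site, against 28.6% of all protein-coding genes. The windows of sbp-1 (17200 bp) and mdt-15 (8195 bp) were long, against a median of 5027 bp over all protein-coding genes. In pooled signal, nhr-68 had 295 and 61.5 and nhr-10 had 159 and 42.2, both being receptor genes that act on the shunt. At nhr-68 the stronger region, 382 bp upstream, was 68 bp from the start of H12C20.7, while both regions of nhr-10 were nearest to nhr-10. Elsewhere, sbp-1, the SREBP homologue, reached 331 at 2615 bp upstream, mdt-15, a Mediator subunit gene, 193 (nearest to W04D12.1), and nhr-114, a receptor gene, 81.7.

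Among the 14 genes of branched-chain amino acid breakdown, dld-1 and acdh-9 were the ones above 100. Against 38.1% of all protein-coding genes, 10 of the 14 had a region. In pooled signal they were dld-1 (181), acdh-9 (143, nearest to F28A10.13), kat-1 (93.9), bcat-1 (66.9), dbt-1 (61.0), bckd-1A (56.2), bckd-1B (50.1), ivd-1 (48.2), ard-1 (46.8) and mccc-1 (38.04). The strongest regions of kat-1, dbt-1, bckd-1B, ivd-1 and mccc-1 were also nearest to other genes. The genes without an optimal region were acdh-3, acdh-4, mccc-2 and B0250.5. At 6 of the 14 genes a region was nearest to their own start site, against 28.6% of all protein-coding genes. Succinyl-CoA ligase, which uses the product of the canonical pathway, had regions at sucl-1 (184), suca-1 (144) and sucl-2 (38.8) but not at sucg-1. Neither paralog had an optimal region. The pooled list held no region in the window of acdh-2, and its highest at ech-7 was 35.5. For the members and these genes alike, the list came from a pathway and not from a test, and the shares are descriptive.

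**Figure D4:**
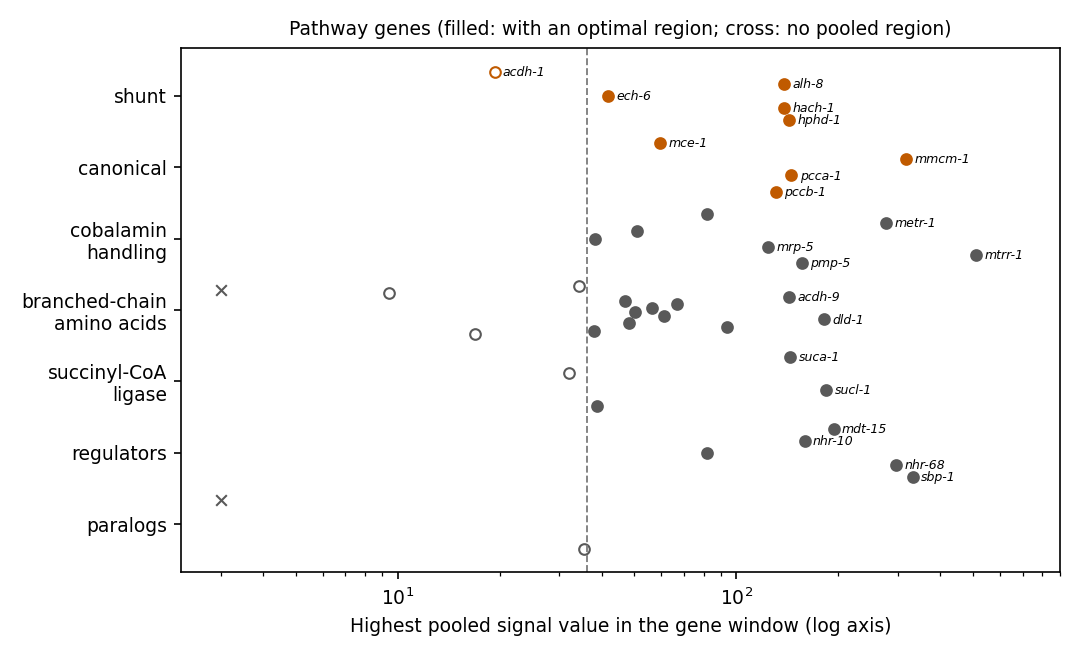
Highest pooled signal value in the gene window (x axis, log scale) for the 9 propionate genes (orange) and 32 further pathway genes (grey), by list. Filled circles have an optimal region, open circles have weaker pooled regions only, crosses at the left edge mark genes with no pooled region, and the dashed line is the lowest optimal signal (36.2). The highest value is at mtrr-1 (511).

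The optimal list held 8745 regions, the pooled list 29697 and each replicate list 30000. At the propionate genes these lists held 11, 36, 32 and 34 regions. The 25 pooled regions outside the optimal set had signals of 5.42 to 26.4 there. At nhr-28 itself no list held a region from 3 kb upstream to the gene end. Whether the authors removed regions at the locus of the transgene is not stated, so this says nothing of binding there. At unc-119 the highest pooled signal was 5.98.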

How the data were processed

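Per the file headers and deposited descriptions, the authors called regions in the alignments of either replicate and in both pooled, each time with a control alignment. These lists keep weak background regions and were the input to the irreproducible discovery rate (IDR) step behind the optimal set. Caller, IDR threshold and signal scale: not given in the sources used here. Every deposited list gives a signal value per region and a −log10 q value, made by the authors, and the optimal list is pooled over both replicates. The ce11 lists were used, and the ce10 lists were not.

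Genes came from Ensembl release 115. Summits were counted from 3 kb upstream of the gene start to the gene end with Python 3.11.15, pandas 2.3.3 and numpy 2.4.6. Replicate regions were matched when they covered the optimal summit. Lists are scaled separately, so values stand side by side without a test. Window counting was tested on simulated data. The members, lists and motifs were chosen with earlier results of these data known. Named were all members, every listed pathway gene, the regions next to the leading member in signal, and genes beside a member's summit.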

Additional observations from a re-analysis of the deposited data

How the results depend on the processing

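The number of genes with a region was 7 to 8 when either replicate was left out, using the 8745 strongest regions of the other list, since ech-6 ranked 9775 in replicate 1, and the number of summits was then 11 to 12. With the 4372 optimal regions of highest signal, 6 genes and 7 summits were left, against 22.5% of all genes. The other windows, nearest start sites and the wider pooled set gave 7 or 8 genes and 8 to 11 summits, against 28.1% to 42.7% of all genes. The median over the 9 genes of the rank of the highest region was 5.21% of the pooled list, 5.76% to 6.12% with 1 replicate left out and 5.87% with a window of 1 kb upstream. That window moved hach-1 to 21.6%, against 5.21% in the wider window. The count of summits matched in both replicates was 11 under both overlap rules. TGATAA was at 0 summits within 25 bp and 3 within 100 bp (19.7% and 46.2% of all summits), and at 5 with the added words, which were chosen after seeing the data (48.1% of all summits). No paired analysis was possible because there was 1 group. Read depth is unknown, so the lack of an optimal region at acdh-1 says that none entered that set, while the other lists held weak ones.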
